A study of Zea mays with 7 samples.

Results

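The genes described here are 3 *YABBY* genes, *DRL1* (*GRMZM2G088309*), *DRL2* (*GRMZM2G102218*) and *ZYB15* (*GRMZM2G529859*), and 1 *KANADI* gene, *MWP1* (*GRMZM2G082264*). They were picked by gene ID, and they are 4 of the 110451 genes in the count table. RNA-seq was performed on field-grown maize ear primordia of 3–4 mm in the B73 background, from 4 pools of *Bif3/Bif3* (*Bif3* mutant) and 3 pools of wild-type siblings. Each pool held 3 ear primordia and is 1 biological replicate. That the mutants were homozygous is taken from the study's Methods, since their labels do not state it. *Bif3* is a dominant mutation known from a single allele, with a tandem duplicate of *ZmWUS1*. The study states that samples were sorted into groups after genotyping or phenotyping, without saying which applied to these pools. Total counts were between 42481699 and 50824983 in the *Bif3/Bif3* pools and between 41720131 and 56057512 in the wild-type pools.

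*YABBY* genes encode plant-specific transcription factors that are transcribed in lateral organs such as leaves, bracts and floral organs, and not in the meristem that forms them. *KANADI* genes encode transcription factors of the GARP family that specify the abaxial (lower) side of organs, opposite to the HD-ZIP III genes of the adaxial side. In a maize ear the lateral organs at this stage are mostly suppressed bracts, which subtend the spikelet pair meristems, and the glumes and floral organs that spikelet meristems begin to form. *DRL1* and *DRL2* are co-orthologs of rice *DROOPING LEAF* and act in leaf midrib formation and in floret development. *ZYB15* marks suppressed bract primordia and was the in situ probe for them in the study. *MWP1* was named after the *milkweed pod1* mutant, in which the abaxial side of the leaf sheath takes on adaxial traits.

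The ratio given further on compares the transcripts of *ZYB15* and of *KN1*, a homeobox gene of the meristem. The primers of their in situ probes are therefore shown. They are written 5′ to 3′ as listed by the study.
*ZYB15* forward: tcccgcccgccgcgccg
*ZYB15* reverse: tacatggtaaaggacgatggaac
*KN1* forward: ccccaagaacttcatctcatctc
*KN1* reverse: gctaccttcttgatcctcctca

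Levels are given as CPM, counts in relation to the library size after TMM scaling. They compare pools for 1 gene and not genes with each other, since they were not divided by transcript length. The genotype labels were checked on *ZmWUS1*, with a range of 3.82 to 12.8 CPM for *Bif3/Bif3* against 0.320 to 0.551 CPM for wild-type. Of the 9 ear meristem marker genes matched in the gene table, 8 were above the detection limit of 3 counts in every pool and *BD1* had no count in wild-type replicate 1, and their summed level was between 989 and 1177 CPM in *Bif3/Bif3* and between 978 and 1160 CPM in wild-type. Of 6 genes of green leaf tissue, *PPDK1* had between 15.1 and 39.1 CPM and *ME3* between 6.17 and 12.0 CPM over all pools, *SSU1* and *LHCB3* were low, *RCA1* had no count in 5 pools and *PEP1* fewer than 2 counts in all pools together. The detection limit lay between 0.0540 and 0.0719 CPM depending on the pool.

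None of the 4 genes was past the threshold for differential expression (fold change over 1.5, p-value under 0.05 and adjusted p-value under 0.1). With edgeR's quasi-likelihood test, 2 of the 4, *DRL1* and *MWP1*, had an unadjusted p under 0.05, as had 17.6% of the genes tested. DESeq2, limma-voom and the quasi-likelihood fit of edgeR 4 also called 0 of the 4. For *MWP1* each of them gave an adjusted p under 0.1 but a change under 1.5-fold. Over all 40650 genes tested, 3.39% were past the threshold and higher and 0.598% were past it and lower, 3.99% in either direction. *DRL1* had a positive log2 fold change and *MWP1* a negative one, while *DRL2* and *ZYB15* varied more between wild-type pools than their means differed between the genotypes. In a pooled ear primordium, more cells of a kind and more RNA per cell cannot be told apart.

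*ZYB15* had 54.6, 47.3, 28.8 and 26.4 CPM in *Bif3/Bif3* replicates 1 to 4, and 20.9, 58.9 and 32.9 CPM in wild-type replicates 1 to 3. The lowest and the highest of the 7 pools were both wild-type, so the *Bif3/Bif3* pools lay within the wild-type range. The *Bif3/Bif3* pools averaged 39.3 ± 13.8 CPM (SD, n = 4) against 37.6 ± 19.4 CPM (SD, n = 3) for the wild-type pools. The log2 fold change was 0.06, with a 95% interval from -0.63 to 0.75 (adjusted p = 0.948 in the quasi-likelihood test of edgeR, Benjamini-Hochberg adjusted, called the edgeR test from here on), so that a 1.5-fold difference in either direction is within the interval. Leaving out wild-type replicate 2 gave 0.54 and leaving out wild-type replicate 1 gave -0.23, neither past the threshold. Permuting the genotypes over all 35 splits of the pools gave an exact two-sided p of 0.886 for mean CPM.

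*DRL2* had 3.02, 3.88, 2.59 and 3.36 CPM in *Bif3/Bif3* replicates 1 to 4. In wild-type replicates 1 to 3 it had 1.05, 10.4 and 2.20 CPM. The *Bif3/Bif3* pools were close together, and wild-type replicate 2 alone was 9.85 times wild-type replicate 1 and 4.72 times wild-type replicate 3. The *Bif3/Bif3* pools averaged 3.21 ± 0.547 CPM (SD, n = 4) against 4.55 ± 5.09 CPM (SD, n = 3) for the wild-type pools. The direction of the difference rested on that 1 pool. The log2 fold change was -0.51 (adjusted p = 0.661 by the edgeR test, SE 0.55), but 0.97 without wild-type replicate 2 (adjusted p = 0.126 from the same test, and between 0.126 and 1 in all alternatives). Without that pool, the highest of all, every *Bif3/Bif3* pool (lowest 2.59 CPM) was above the remaining wild-type pools (highest 2.20 CPM). Leaving out the highest wild-type pool favours such a separation. The share of all genes separated in this way was not counted.

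*DRL1*, the paralog of *DRL2*, had 10.7, 5.54, 1.03 and 1.13 CPM in *Bif3/Bif3* replicates 1 to 4, or 473, 261, 46 and 56 counts. It had 0.671, 1.67 and 1.16 CPM in wild-type replicates 1 to 3, or 28, 93 and 58 counts. *Bif3/Bif3* replicates 1 and 2 were above every wild-type pool, whereas replicates 3 and 4 lay inside the wild-type range. The *Bif3/Bif3* pools averaged 4.61 ± 4.59 CPM (SD, n = 4) against 1.17 ± 0.502 CPM (SD, n = 3) for the wild-type pools. The log2 fold change of 1.96 (adjusted p = 0.174 by the edgeR test, SE 0.72), which is 3.89-fold, had a 95% interval from 0.40 to 3.52. *DRL1* was past the threshold without *Bif3/Bif3* replicate 3 (log2 fold change 2.28, adjusted p = 0.0692 by the edgeR test, and between 0.0220 and 0.442 in all alternatives). The log2 fold change dropped to 1.15 without *Bif3/Bif3* replicate 1. Its exact two-sided permutation p was 0.343.

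*MWP1* had 6.03, 5.37, 5.13 and 4.87 CPM in *Bif3/Bif3* replicates 1 to 4, and 8.41, 6.37 and 7.49 CPM in wild-type replicates 1 to 3. Of the 4 genes it was the only one whose genotypes did not overlap, with all *Bif3/Bif3* pools on the low side. Among all genes tested, the pools did not overlap in 16.1%, with *Bif3/Bif3* higher in 8.38% and lower in 7.69%. The *Bif3/Bif3* pools averaged 5.35 ± 0.498 CPM (SD, n = 4) against 7.42 ± 1.02 CPM (SD, n = 3) for the wild-type pools. This is a log2 fold change of -0.47 (95% interval from -0.79 to -0.16, adjusted p = 0.106 by the edgeR test). The difference fell short of both the limit on fold change and the limit on adjusted p. The exact permutation test, two-sided, gave p = 0.0286, the smallest that 4 pools against 3 allow, before any correction for the 4 such tests. The log2 fold change stayed between -0.57 and -0.37 when each pool was left out, and the adjusted p was between 0.0258 and 0.267 in all alternatives.

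**Figure D1:**
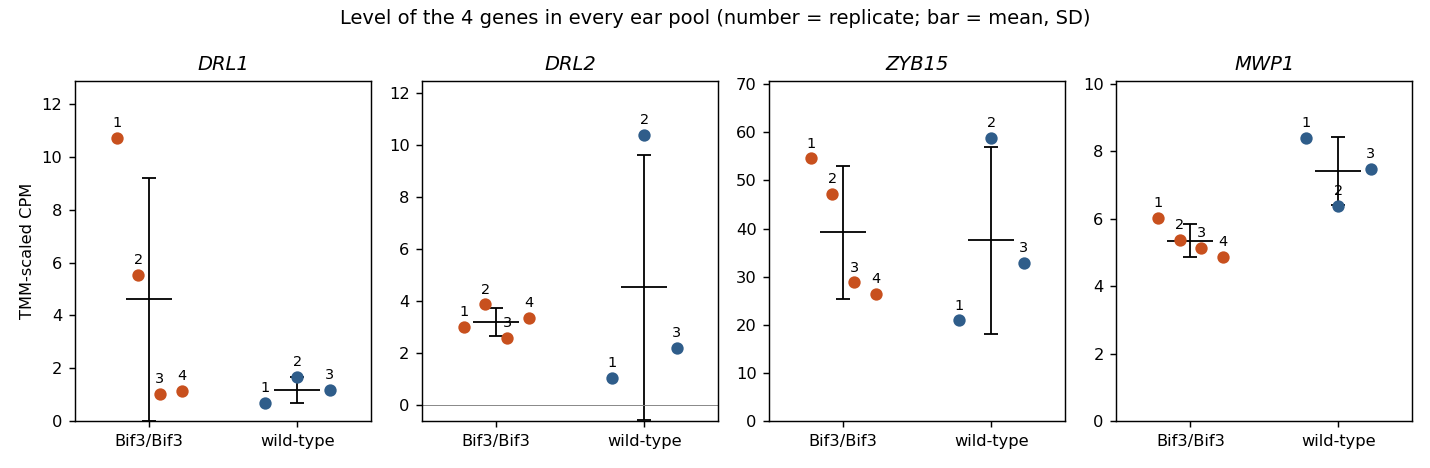
Level of *DRL1*, *DRL2*, *ZYB15* and *MWP1* in TMM-scaled CPM (y axis, linear, a separate scale for each gene) in each pool of *Bif3/Bif3* (left, orange, n = 4) and wild-type (right, blue, n = 3). Numbers are replicates, and bars are mean ± SD. *DRL1* is high in *Bif3/Bif3* replicates 1 and 2, at 10.7 and 5.54 CPM, *DRL2* is high in wild-type replicate 2 alone, at 10.4 CPM, and the pools do not overlap for *MWP1*.

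**Figure D2:**
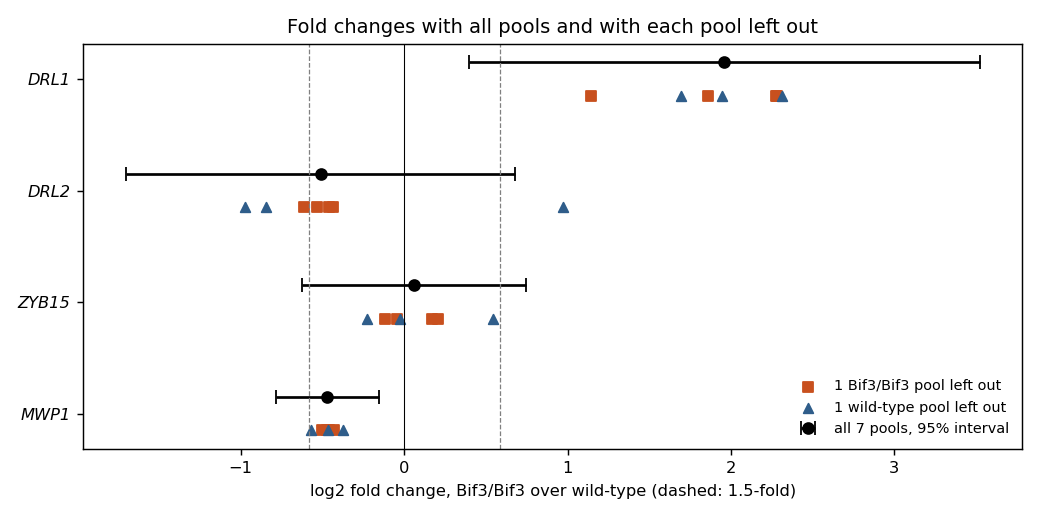
Log2 fold change of *Bif3/Bif3* over wild-type (x axis) for the 4 genes, with all 7 pools (black, 95% interval) and with 1 *Bif3/Bif3* pool (orange squares) or 1 wild-type pool (blue triangles) left out. Dashed lines mark a 1.5-fold change. The sign of *DRL2* turned to 0.97 without wild-type replicate 2, and *MWP1* stayed between -0.57 and -0.37.

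The spread between pools of 1 genotype set *DRL1*, *DRL2* and *ZYB15* apart from most genes. It was taken as the SD of log2(CPM + 0.5), in which the offset of 0.5 narrows the spread of genes at a low level. Within *Bif3/Bif3*, this SD was 1.43 for *DRL1*, larger than for 99.9% of the 21636 genes with a mean of at least 1 CPM, whose median was 0.13. Within wild-type, the SD of *DRL2* was 1.45, larger than for 99.8% of these genes, whereas within *Bif3/Bif3* it was larger than for 76.3%. *ZYB15* had 0.51 in *Bif3/Bif3* and 0.74 in wild-type, larger than for 96.9% and 98.7% of the genes. The SD of *MWP1* was 0.12 in *Bif3/Bif3* and 0.19 in wild-type, larger than for 44.7% and 69.1% of the genes. Each of the 3 *YABBY* genes was thus among the most variable genes of the ear primordium in at least 1 genotype, and the *KANADI* gene in neither.

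Among themselves the 3 *YABBY* genes shared the order of the wild-type pools, with replicate 2 highest and replicate 1 lowest. The whole family followed it. The gene table names 7 further *YABBY* genes, *YAB3*, *YAB5*, *YAB6*, *YAB9*, *YAB10*, *YAB11* and *YAB14*, of which *YAB9* and *YAB14* are known from the adaxial side of young maize leaves. All 10 were highest in wild-type replicate 2 and lowest in wild-type replicate 1, an order found in 17.5% of the genes with at least 1 CPM. Wild-type replicate 2 was between 2.50 times (*DRL1*) and 9.85 times (*DRL2*) wild-type replicate 1 for the 10 genes, and at least 2 times it for 2.09% of genes. In *Bif3/Bif3*, 9 of the 10, all but *DRL2*, had replicates 1 and 2 both above replicates 3 and 4, as had 21.8% of the genes. The summed level of the family was 131, 115, 72.3 and 65.2 CPM in *Bif3/Bif3* replicates 1 to 4, and 45.3, 164 and 76.6 CPM in wild-type replicates 1 to 3.

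*MWP1* did not follow this order. It was highest in wild-type replicate 1 and lowest in wild-type replicate 2, and had its highest *Bif3/Bif3* level in replicate 1. *KAN1*, another *KANADI* gene, had 85, 59, 54 and 21 counts in *Bif3/Bif3* replicates 1 to 4 and 12, 54 and 22 counts in wild-type replicates 1 to 3, which is the order of the *YABBY* genes in wild-type. *KAN3* had at most 15 counts in a pool. The 2 best measured *KANADI* genes therefore differed in the sign of their log2 fold change, 1.06 for *KAN1* (adjusted p = 0.296 by the edgeR test, SE 0.50) and -0.47 for *MWP1*, and neither was past the threshold.

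**Figure D3:**
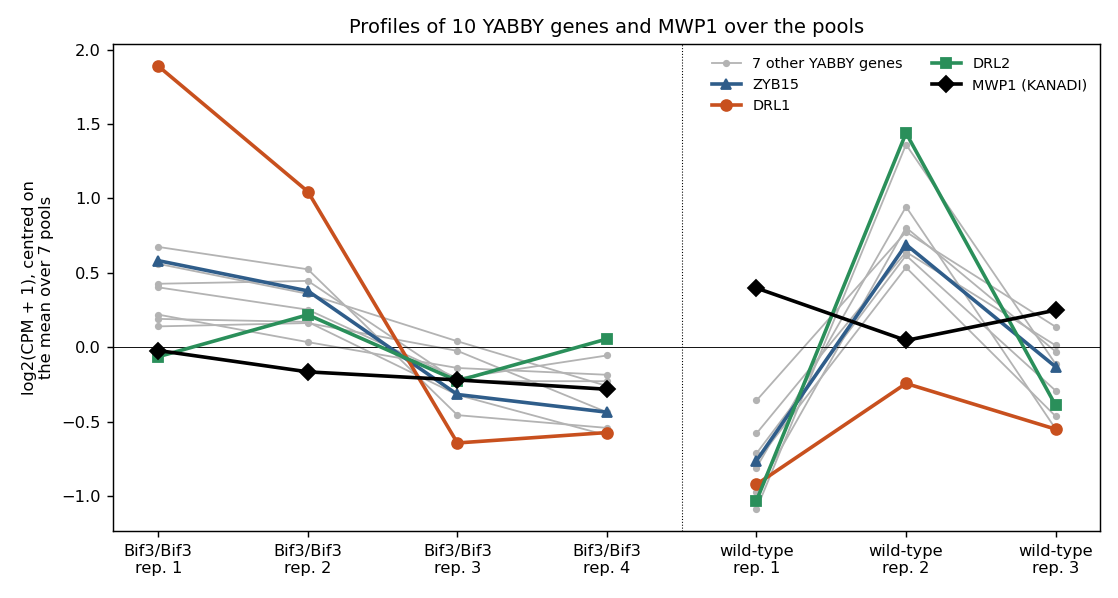
Log2(CPM + 1) of the 10 *YABBY* genes and *MWP1* in each pool, centred on the mean over the 7 pools (y axis), with *Bif3/Bif3* pools on the left and wild-type pools on the right. Lines only join the points of 1 gene. All 10 *YABBY* genes peak in wild-type replicate 2 among the wild-type pools, *DRL1* is far above the rest in *Bif3/Bif3* replicates 1 and 2, and *MWP1* does not have this order.

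The edgeR test called 0 of 10 *YABBY* genes and 0 of 3 *KANADI* genes. At an unadjusted p under 0.05 there was 1 *YABBY* gene, *DRL1*, and 1 *KANADI* gene, *MWP1*. DESeq2, limma-voom and the fit of edgeR 4 also called none of the 13. The median log2 fold change of the *YABBY* genes was 0.05, against -0.01 over all genes tested, with 6 higher and 4 lower in sign. Without wild-type replicate 2, *YAB9* and *YAB11* were past the threshold and higher, with log2 fold changes of 0.94 and 1.53 (adjusted p = 0.0707 and 0.0752 from the same test). With all pools, *YAB9* had a log2 fold change of 0.36 and *YAB11* one of 0.07.

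Because the family varied as a whole between pools, each gene was also set against *ZYB15* within its pool, a comparison chosen after the levels were seen. For every 100 counts of *ZYB15* there were 19.7, 11.7, 3.57 and 4.27 counts of *DRL1* in *Bif3/Bif3* replicates 1 to 4, against 3.21, 2.84 and 3.53 in wild-type replicates 1 to 3. By this measure no wild-type pool reached the level of any *Bif3/Bif3* pool, although *Bif3/Bif3* replicate 3 and wild-type replicate 3 were next to each other. The log2 ratio averaged -3.69 ± 1.17 (SD, n = 4) in *Bif3/Bif3* and -4.96 ± 0.160 (SD, n = 3) in wild-type, a difference of 1.27 (exact two-sided permutation p = 0.143, or 0.619 after Benjamini-Hochberg adjustment over the 5 ratios tested). Between the wild-type pools the ratio of *DRL1* to *ZYB15* thus moved little, although both genes were at least 2 times higher in replicate 2 than in replicate 1.

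*DRL2* did not keep such a ratio. It had 5.53, 8.21, 8.99 and 12.7 counts for every 100 of *ZYB15* in *Bif3/Bif3* replicates 1 to 4, and 5.05, 17.6 and 6.70 in wild-type replicates 1 to 3. The mean log2 ratios differed by 0.01 (exact two-sided permutation p = 1). *MWP1* had between 11.1 and 18.4 counts for every 100 of *ZYB15* in *Bif3/Bif3* and between 10.8 and 40.3 in wild-type, and the mean log2 ratio differed by -0.59 (exact permutation p = 0.371). Of the 5 ratios, only that of *DRL1* to *ZYB15* did not overlap between the genotypes, by a gap within counting error. None of the 5 had a permutation p under 0.05.

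The *DRL* paralogs took changing parts of their common counts. *DRL1* made up 78.1% of the counts of the pair in *Bif3/Bif3* replicate 1 (95% exact binomial interval 74.5% to 81.3%) and 58.8% in replicate 2 (54.0% to 63.4%). It made up 28.4% in *Bif3/Bif3* replicate 3 and 25.1% in replicate 4. In wild-type the share was 38.9%, 13.9% and 34.5% in replicates 1 to 3. *DRL1* was thus the larger part of the pair in 2 *Bif3/Bif3* pools and the smaller part in the other 5 pools. The log2 ratio of *DRL2* to *DRL1* averaged 0.14 ± 1.61 (SD, n = 4) in *Bif3/Bif3* and 1.40 ± 1.07 (SD, n = 3) in wild-type, and the difference of -1.26 was smaller than the spread within *Bif3/Bif3* (exact two-sided permutation p = 0.314). Intervals cover counting error only, and reads shared by the paralogs may have been dropped or split in the counting.

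**Figure D4:**
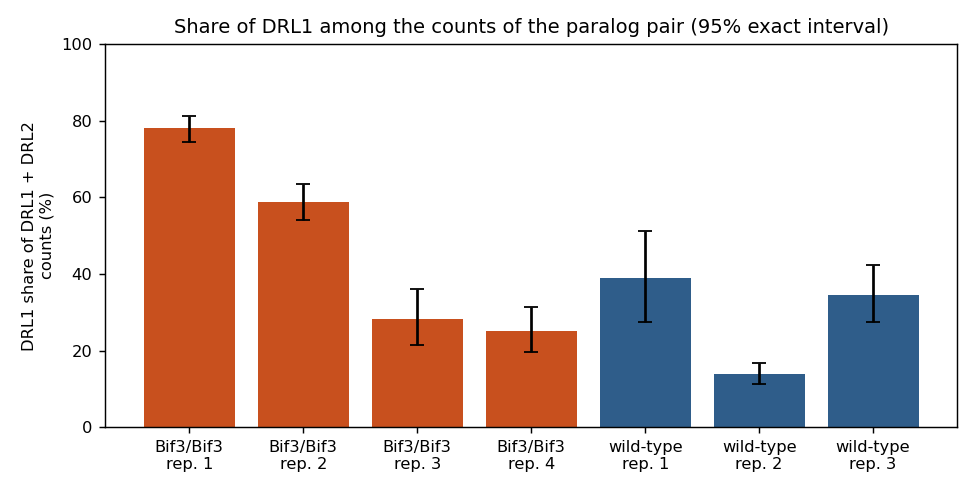
Share of *DRL1* in the summed counts of *DRL1* and *DRL2* (y axis, %) in each pool, *Bif3/Bif3* in orange on the left and wild-type in blue on the right. Bars show the share and whiskers its 95% exact binomial interval. The share is above 50% only in *Bif3/Bif3* replicates 1 and 2, with 78.1% and 58.8%, and lowest in wild-type replicate 2, with 13.9%.

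Organ and meristem transcripts were compared within each pool through *ZYB15* and *KN1*. The study describes *KN1* as also transcribed in ground tissue, so its counts in a whole ear do not measure meristem tissue alone. *KN1*, which is needed to keep meristem cells undifferentiated, had between 486 and 617 CPM in *Bif3/Bif3* and between 418 and 498 CPM in wild-type (log2 fold change 0.23, adjusted p = 0.259 by the edgeR test). The log2 ratio of *ZYB15* to *KN1* was -3.32, -3.51, -4.08 and -4.54 in *Bif3/Bif3* replicates 1 to 4, and -4.57, -2.83 and -3.88 in wild-type replicates 1 to 3. The genotypes overlapped, and the means differed by -0.10 (exact two-sided permutation p = 0.829). The difference was 0.36 without wild-type replicate 2. The pool with the most *ZYB15* in relation to *KN1* and the pool with the least were both wild-type.

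Other gene lists were read beside the 4 genes. Of the 5 organ polarity genes matched, the edgeR test put 0 past the threshold, with 2 at an unadjusted p under 0.05, *RLD2* and *RS2*. *ARF3*, an auxin response factor gene, had 447, 451, 258 and 241 CPM in *Bif3/Bif3* replicates 1 to 4 and 173, 343 and 239 CPM in wild-type replicates 1 to 3, an order of pools like that of *ZYB15*. *RLD2*, an HD-ZIP III gene, had a log2 fold change of 0.38, and *RS2*, a repressor of *KNOX* genes in leaf primordia, one of 0.36. For *RS2* the edgeR test gave an adjusted p of 0.0797 but a change under 1.5-fold. *RLD2* was past the threshold and higher without wild-type replicate 2 (log2 fold change 0.60, adjusted p = 0.0177 by the edgeR test).

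Both leaf margin *WOX* genes had negative log2 fold changes. *WOX3A* had 3.79, 1.87, 3.10 and 1.97 CPM in *Bif3/Bif3* replicates 1 to 4 and 8.96, 4.59 and 7.09 CPM in wild-type replicates 1 to 3. It was past the threshold and lower (log2 fold change -1.36, standard error 0.28, adjusted p = 0.0237 by the edgeR test), with no overlap between the pools. *NS1*, which recruits cells to the margins of maize leaves, was at -1.07 on the log2 scale (adjusted p = 0.122 from the same test) and was past the threshold without wild-type replicate 2 (log2 fold change -1.33, adjusted p = 0.0674). In wild-type replicate 2, the pool with the most *YABBY* counts, both genes were at their lowest wild-type level.

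Of the 8 bract and axillary meristem genes matched, 3 fell, *BAF1*, *BA1* and *RA3*, with log2 fold changes of -1.48, -1.16 and -0.93, and 0 rose. The call of *RA3* was lost when *Bif3/Bif3* replicate 1 or 2 or wild-type replicate 1 or 3 was left out (log2 fold change -0.75, -0.80, -0.84 and -0.84, adjusted p between 0.126 and 0.167 by the edgeR test). *RA1* was at -0.50 (adjusted p = 0.248 by the edgeR test). *BA1* and *BAF1* are required for axillary meristems to form, and *RA1* and *RA3* limit their branching. *BA1* was at 16.7 CPM in wild-type replicate 2, against 29.5 and 27.7 CPM in the other wild-type pools, and *RA3* at 124 CPM against 183 and 183 CPM, so that both were lowest where the *YABBY* genes were highest. In *Bif3/Bif3*, *RA3* had 59.3 and 62.0 CPM in replicates 1 and 2 and 102 and 120 CPM in replicates 3 and 4, again opposite to *ZYB15*. None of the 7 genes of this list with at least 1 CPM had the *YABBY* order of the wild-type pools. The 8th, *BD1*, which specifies spikelet meristem identity, had that order at a lower level and is named because of it, with 127, 80, 5 and 3 counts in *Bif3/Bif3* replicates 1 to 4 and 0, 50 and 5 counts in wild-type replicates 1 to 3.

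**Figure D5:**
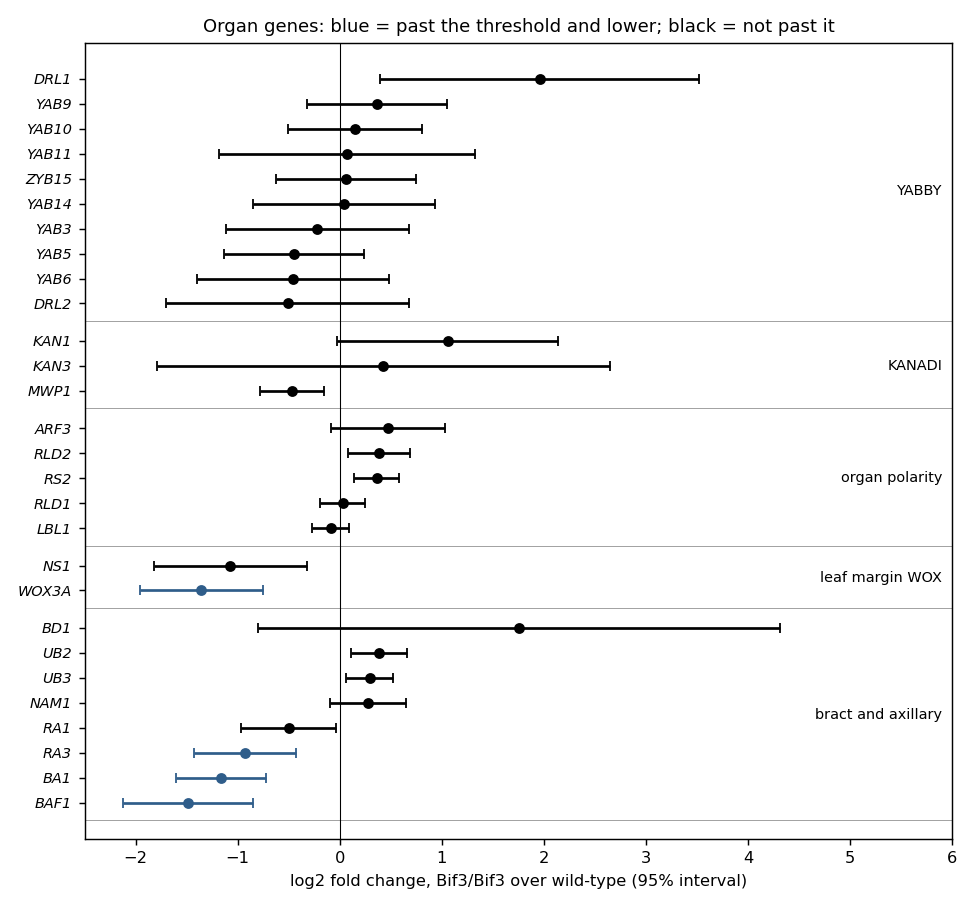
Log2 fold change of *Bif3/Bif3* over wild-type (x axis) with its 95% interval for the tested genes of the *YABBY*, *KANADI*, organ polarity, leaf margin *WOX* and bract and axillary meristem lists. Blue genes were past the threshold and lower, and black genes were not past it. The 10 *YABBY* genes run from -0.51 (*DRL2*) to 1.96 (*DRL1*), and the 4 genes past the threshold are *WOX3A*, *RA3*, *BA1* and *BAF1*.

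*DRL* genes also act in florets, and floral organ MADS-box genes were therefore read in the same pools. Of 11 such genes 2 were past the threshold and higher and 0 were lower, and only 2 reached a mean of 1 CPM. *ZMM8* had 218, 117, 184 and 238 counts in *Bif3/Bif3* replicates 1 to 4 and 13, 0 and 1 counts in wild-type replicates 1 to 3 (adjusted p = 0.00296 by the edgeR test). *ZMM16* was at 23.6 ± 1.08 CPM in *Bif3/Bif3* (SD, n = 4), against 29.3 ± 5.93 CPM in wild-type (SD, n = 3) (adjusted p = 0.198 from the same test). The other gene past the threshold, *ZAG1*, is named because it was called, with 22, 103, 8 and 54 counts in *Bif3/Bif3* replicates 1 to 4 and 0, 0 and 2 counts in wild-type replicates 1 to 3. *DRL1* was highest in *Bif3/Bif3* replicate 1, *ZMM8* in replicate 4 and *ZAG1* in replicate 2.

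Of the green tissue genes, *SSU1* and *LHCB3* were highest in wild-type replicate 2 among the wild-type pools, as were the *YABBY* genes, at a low level, and are named because of this order. *SSU1*, a Rubisco small subunit gene, had 36, 29, 10 and 19 counts in *Bif3/Bif3* replicates 1 to 4 and 5, 62 and 5 counts in wild-type replicates 1 to 3. *LHCB3* had between 0 and 10 counts in *Bif3/Bif3* and between 1 and 9 in wild-type, with the 9 in replicate 2. Neither of the 2 green tissue genes with at least 1 CPM had the *YABBY* order of the wild-type pools. *PPDK1* had 17.2, 15.1 and 19.2 CPM in wild-type replicates 1 to 3, with the lowest level in replicate 2, and *ME3* had 10.3, 10.5 and 12.0 CPM. The summed level of the 5 tested genes of this list was between 25.0 and 46.6 CPM in *Bif3/Bif3* and between 26.8 and 31.4 CPM in wild-type, mostly from *PPDK1*. Of these 5 genes *ME3* was past the threshold and lower and 0 were higher. Without wild-type replicate 2, *SSU1* was past the threshold and higher (log2 fold change 2.19, adjusted p = 0.0915 by the edgeR test), and so was *PPDK1* without *Bif3/Bif3* replicate 4 (0.94, adjusted p = 0.0243). The part of green tissue in the levels of the 4 genes was not tested.

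The genes most alike in pattern were sought among the 4507 genes with a symbol and a mean of at least 5 CPM, by the root mean square difference of centred log2(CPM + 1) over the 7 pools. For *ZYB15* the closest was another *YABBY* gene, *YAB14*, at 0.14, followed by *NIP1-1* at 0.18. For *DRL2* they were *YAB6* at 0.24 and the MADS-box genes *m26* and *zmm19* (*tunicate1*, the gene of pod corn) at 0.25 and 0.26. *zmm19* had 31.2, 128 and 45.0 CPM in wild-type replicates 1 to 3, the highest again in replicate 2. For *DRL1* the closest were *por*, *tga1*, which controls the glume architecture of the kernel, and *BX4* of benzoxazinoid synthesis, at 0.39 to 0.42. The SD over pools of the genes themselves was 0.97 for *DRL1*, 0.70 for *DRL2*, 0.51 for *ZYB15* and 0.23 for *MWP1*, so that these distances are not on 1 scale. *tga1* had 17.2, 15.3, 2.97 and 3.48 CPM in *Bif3/Bif3* replicates 1 to 4 and between 1.51 and 1.87 CPM in wild-type. Unlike *DRL1*, *tga1* was past the threshold and higher (log2 fold change 2.54, adjusted p = 0.0360 by the edgeR test). For *MWP1* the closest gene was *DER1.2* at 0.09.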

How the data were processed

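The count table deposited by the authors holds raw read counts per B73 v3 gene ID for 3 wild-type and 4 *Bif3/Bif3* pools. The labels state stranded libraries. Per the Methods, reads were trimmed with Trimmomatic, aligned with HISAT and counted with HTSeq-count, whereas the submitters' processing notes name TopHat2 2.1.1 and Cuffdiff. Whether reads were counted by strand, and on which annotation, is not given in the sources used here. Every column of the table belonged to a sample.

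Genes with at least 2 counts over all pools (40650 of 110451, 65090 having none) were fitted in edgeR 4.0.16 (R 4.3.3) with TMM scaling, factors 0.970 to 1.04, and the quasi-likelihood test in its legacy form, with genotype as the only term. A gene was called at a fold change over 1.5, p under 0.05 and Benjamini-Hochberg adjusted p under 0.1 over all genes tested, after the study's threshold. On simulated counts for 39189 genes the test recovered 197 of 200 genes changed by 3-fold and called 6 of 38989 unchanged ones. The simulation gave each gene the dispersion usual for its level. *DRL1*, *DRL2* and *ZYB15* varied more, with a coefficient of variation between pools of 0.63, 0.53 and 0.31 in edgeR. The common value was 0.17, so this recovery does not hold for these genes. Each of the 4 genes was also compared by an exact two-sided permutation of mean CPM over the 35 splits of the pools, and ratios were taken within pools with a prior count of 0.5.

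The 4 genes were described in full. Of other lists, all *YABBY* and *KANADI* genes and up to 4 genes with the largest change and at least 1 CPM were to be named, and exceptions are marked. The 4 genes and the lists were chosen with earlier results of these data known. Symbols came from a RefSeq gene table of assembly NAM-5.0, which was used for names only and matched 4 of 4 genes and 5965 tested IDs. The 11 organ polarity symbols gave 5 genes, the 4 *WOX* symbols 2, the 14 bract and axillary symbols 8 and the 13 floral MADS-box symbols 11. Ratios to *ZYB15* were added after the data were seen. Alternatives were DESeq2 1.42.0, limma-voom (limma 3.58.1), the edgeR 4 fit, other scaling, other filters and limits, a replicate block and leaving out each pool. The 7 pools, compared pair by pair, differed beyond sampling noise in 35.4% to 63.1% of genes, so none was a repeat of another.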

Additional observations from a re-analysis of the deposited data

Results flagged for a closer look

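In 6 of the 50 genes checked, 1 of the 4 *Bif3/Bif3* pools lay far from the other 3 by Dixon's criterion, which chance alone meets in about 1 of 20 genes. None of the 6 is *DRL1*, *DRL2*, *ZYB15* or *MWP1*. *ZmWUS1* was high in *Bif3/Bif3* replicate 4, with 12.8 CPM. The organ polarity gene *RS2* was low in replicate 3, with 54.3 CPM. *UB2*, an SBP-box gene of the bract list, stood apart in replicate 4 with 73.8 CPM. The floral genes *SI1* and *ZMM29* stood apart in replicate 2, with 0.212 and 0.0849 CPM, and *RCA1* of green tissue in replicate 1, with 0.0681 CPM, all 3 at a few counts.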

How the results depend on the processing

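*MWP1* kept its direction and stayed short of the threshold in 17 of 17 alternatives. In some of them only the fold change fell short, with an adjusted p under 0.1. These were DESeq2 (0.0258), limma-voom (0.0961), the edgeR 4 fit (0.0983), edgeR's filter on low counts (0.0873) and the fit without wild-type replicate 2 (0.0876). *DRL1* kept its direction in all 17 and was past the threshold in 2. *DRL2* changed sign in 3 and *ZYB15* in 4 of 17, none past the threshold. Among the 17, the stricter limit on adjusted p and the lifted limit on fold change reused the main fit. These 2 could not change a direction, and the stricter limit could not add a call. With each pool left out in turn, the log2 fold change ranged from 1.15 to 2.31 for *DRL1*, from -0.97 to 0.97 for *DRL2*, from -0.23 to 0.54 for *ZYB15* and from -0.57 to -0.37 for *MWP1*. Over the same fits there were 687 to 1817 higher and 114 to 327 lower genes, and 0 to 2 higher *YABBY* genes. The difference in log2 ratio (*Bif3/Bif3* minus wild-type) ranged from -0.51 to 0.36 for *ZYB15* to *KN1*, from -0.36 to 0.54 for *DRL2* to *ZYB15*, from 0.82 to 1.63 for *DRL1* to *ZYB15*, from -1.73 to -0.60 for *DRL2* to *DRL1* and from -1.09 to -0.14 for *MWP1* to *ZYB15*. *DRL2* had a log2 fold change of 0.039 with limma-voom. An adjusted p under 0.05 left 891 higher and 137 lower genes, and no limit on fold change gave 670 lower genes. Whether the replicate numbers pair the pools was not settled. Same-numbered pools had correlations of -0.0184, 0.487 and 0.270. Those of differently numbered pools ran from -0.378 to 0.301. Number 4 had no wild-type pool, so a replicate block leaves *Bif3/Bif3* replicate 4 out of the genotype difference. The block results therefore rest on replicates 1 to 3 of both genotypes. In the pool left out, *DRL1* was at 1.13 CPM, inside the wild-type range. With the number as a replicate block, *DRL1* was past the threshold (log2 fold change 1.87, adjusted p = 0.0220 by the edgeR test), as were *KAN1* (1.42, adjusted p = 0.0255), *ARF3* (0.62, 0.0179), *NS1* (-1.23, 0.00756), *BD1* (2.20, 0.0798) and *PPDK1* (0.92, 0.000189). *DRL2* was at 0.0014 under this replicate block, and 1994 genes were higher and 394 lower, with 1 *YABBY* and 1 *KANADI* gene higher. DESeq2 also called *NS1* (-1.08, 0.0520) and *PPDK1* (0.75, 0.0259), and library size alone *PPDK1* (0.79, 0.0980). The causes of these shifts were not tested. With 4 pools against 3, the interval of each of the 4 genes reaches beyond a 1.5-fold change.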
